A study of Drosophila melanogaster with 3 samples.

Results

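The genes described here are 9 genes of the muscle contractile apparatus of Drosophila melanogaster and Mef2, a transcription factor gene of muscle. The 10 genes were chosen by name and looked up in the Ensembl annotation, among 13945 protein-coding genes on the chromosome arms that carry peaks. For each gene, every peak summit inside it or within 2 kb of it was taken from the thresholded peak list (called optimal here). The data are chromatin immunoprecipitation and sequencing profiles of rgr, a protein assayed as a transcription factor. The strain, labelled rgr-GFP, is a transgenic line that makes rgr fused at its C-terminus to GFP, and an antibody against GFP pulled down the chromatin. Whole wandering larvae of the last instar were used, males and females pooled, with age recorded as unknown. There was 1 group with 3 biological replicates, all of the same strain, so no condition is compared. A whole larva mixes many tissues, so weak binding in many cells and strong binding in few cells cannot be told apart, and muscle was not isolated. No untagged or other control group was analysed here.

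The contractile unit of striated muscle is the sarcomere, in which thick filaments of myosin slide along thin filaments of actin. On the thin filament, tropomyosin and the troponin complex control access of myosin to actin in response to calcium. Giant titin-like proteins connect thick filaments to the Z-disc, the plate that anchors the thin filaments. In flies, Mef2 encodes a MADS-box transcription factor needed for muscle differentiation, which activates many contractile genes. Body wall muscles make up much of a larva's mass and drive its crawling.

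Peaks at these genes were concentrated in Mef2 and Tm1. Across the 10 genes there were 17 optimal summits, of which 8 belonged to Mef2, 6 to Tm1, 2 to Mlc2 and 1 to sls. Among the 4275 optimal peaks with the higher signal, Mef2 had 5 summits, Mlc2 2, Tm1 1 and sls 1, so the concentration at Tm1 was in weaker peaks. No optimal summit was found at Mhc, Act57B, Tm2, bt, up or wupA. Thus 4 of the 10 genes had a summit in or within 2 kb, while 46.0% of all protein-coding genes had one. That share rose with gene span, from 39.9% under 5 kb to 72.0% over 50 kb. Most of the 10 genes are longer than 5 kb, so the shares by span class, given below, are the closer comparison. A promoter summit, within 500 bp of an annotated transcript start of the gene, was present at 3 of the 10 genes (Mef2, Tm1 and sls), and at 29.0% of all protein-coding genes. In the replicates' own lists, each limited to its 8551 highest signals, the 10 genes held 17, 15 and 17 summits, or 16.3 ± 1.15 (SD, n = 3). The counts are a description, since the genes were chosen by name with earlier results of these data known and no chance test was made.

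**Figure D1:**
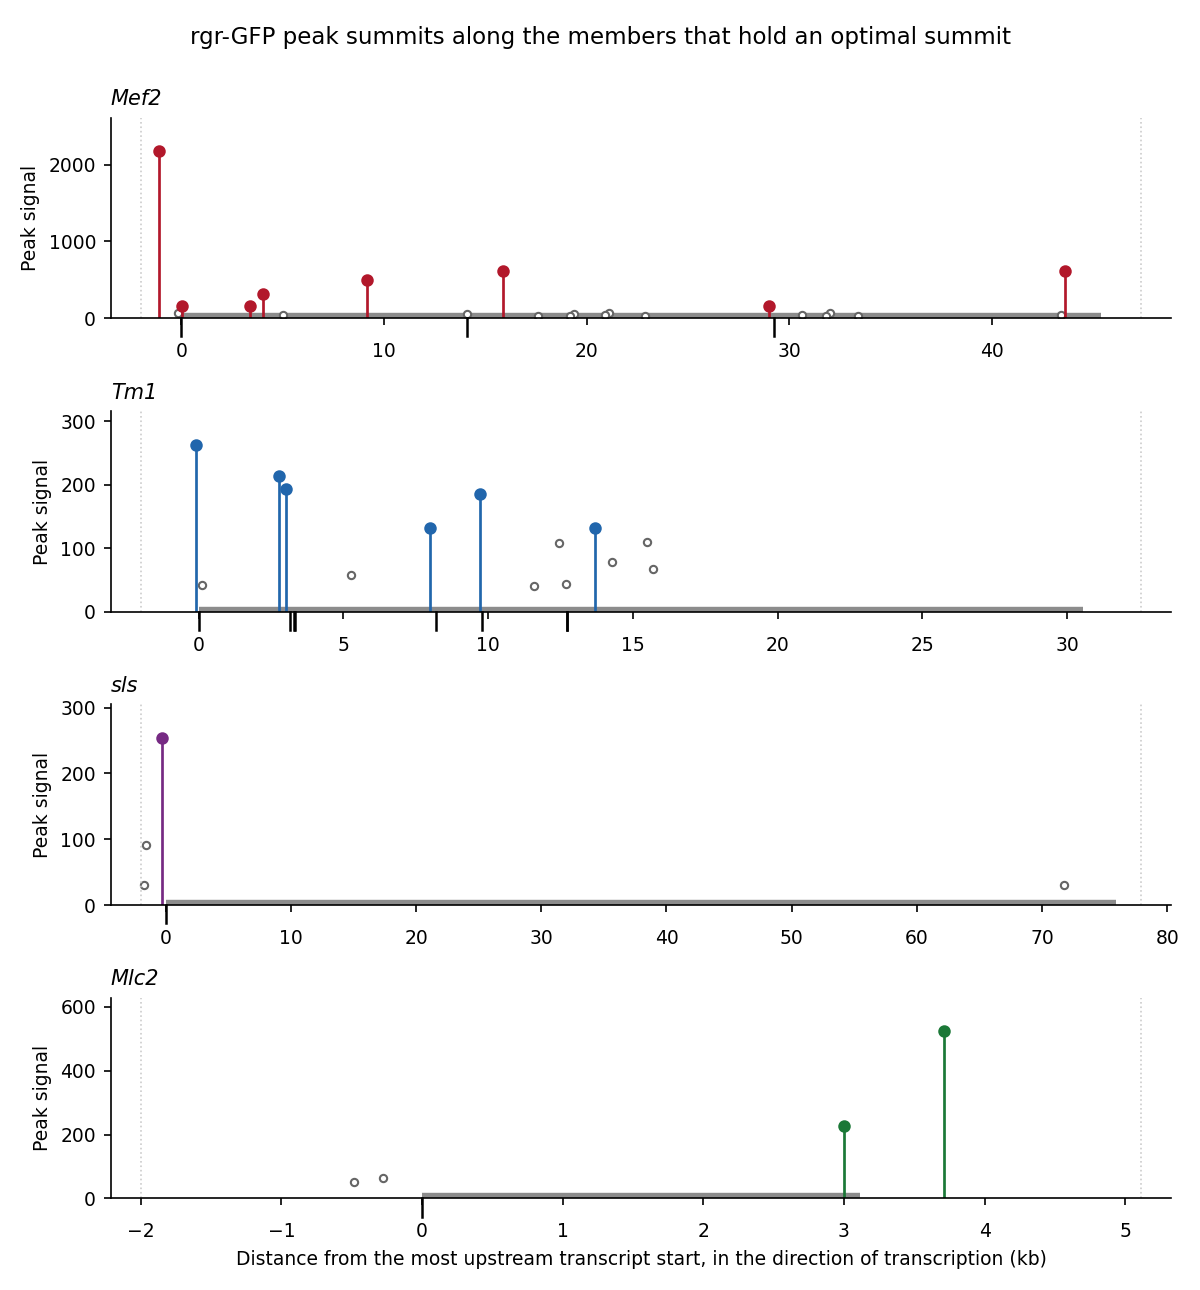
Peak summits along Mef2, Tm1, sls and Mlc2. The x axis is the distance in kb from the most upstream transcript start, the y axis the authors' peak signal on a linear scale that differs between panels, filled circles on stems are optimal summits, open circles are entries of the pooled relaxed list below the optimal threshold, grey bars are gene spans, black ticks below the axis are annotated transcript starts, and dotted lines mark 2 kb beyond each gene. The summit of signal 2173 stands 1088 bp upstream of Mef2, and the 6 Tm1 summits lie from 98 bp upstream to 13690 bp downstream of its first start.

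Peak signal, the value the authors' peak caller gave each peak, came with no stated scale and served here for ordering peaks inside a list. It ran from 123 to 5263 over the 8551 optimal peaks, with a median of 225. Over the 17 summits at these genes it ran from 131 to 2173, with a median of 226. The weakest was in Tm1, and the strongest entry at these genes that fell below the optimal threshold was also in Tm1, with a signal of 110. Of the 17 summits, 13 lay inside the named gene and 4 outside it. Introns held 9 of the 13, 5′ UTRs 2 and 3′ UTRs 2, and coding exons held none. Each of 12 summits had its nearest transcript start, of any gene, in the named gene, and 5 were nearer to the start of a neighbour. The same splits over all optimal summits are not given here, so these counts are a description only.

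The tropomyosin gene Tm1 had 6 optimal summits, of which 5 lay upstream of one of its transcript starts. Tropomyosins are coiled-coil proteins that run along actin filaments, and Tm1 makes both muscle and cytoskeletal forms by alternative starts and splicing. The gene (FBgn0003721) lies on arm 3R from 15278220 to 15308779, plus strand, and has 8 annotated starts for 18 transcripts. The first summit, at 15278122, had a signal of 263 and lay 98 bp upstream of the first start, that of transcript Tm1-RT. It was also 13 bp from the start of MRG15, which encodes a chromodomain protein of histone-modifying complexes, and in the 3′ UTR of l(3)neo43. The summit is therefore not specific to Tm1 by position.

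A second group of Tm1 starts had a pair of summits 220 bp apart. The summit at 15281005 (signal 213) lay 366 bp upstream of the start at 15281371, and that at 15281225 (signal 193) lay 146 bp upstream of it. Their peak intervals, each 416 bp wide, overlap. Starts at 15281532 and 15281550, used by 3 and 7 transcripts, lay 307 and 325 bp downstream of the nearer of these summits. Further in, the summit at 15286201 (signal 131) lay 218 bp upstream of the start of Tm1-RH, and that at 15287951 (signal 185) lay 61 bp upstream of the start shared by Tm1-RC and Tm1-RI. The remaining summit, at 15291910 (signal 132), was 964 bp downstream of the last start. In all, 6 of the 8 starts had an optimal summit within 500 bp. The last pair of starts, at 15290944 and 15290946, had only relaxed entries within 500 bp. The stronger lay 280 bp upstream of the first of the pair, with a signal of 108 at rank 9780 of 30000 in the pooled list, and was nearer to a start of CG45218 (135 bp). The weaker lay 29 bp upstream of it, with a signal of 43.6 at rank 21619. Beyond the last summit the gene held no further optimal summit.

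All 6 Tm1 summits were found in the relaxed list of every replicate, and 4 of them were among the 8551 highest signals of each. Ranks count from 1 at the highest signal, and a summit within 100 bp was sought in each replicate's list of 30000 entries. The summit at 15278122 was at rank 2786, 4265 and 3234 in replicates 1, 2 and 3. The summit at 15281005 was at 4428, 4748 and 4440. For 15281225 the ranks were 4331, 6214 and 5311, and for 15287951 they were 6422, 4766 and 8287. All 4 of these were thus among the 8551 highest signals of every replicate. The summit at 15286201 was at 8364, 8846 and 10141, inside that limit in replicate 1 alone. The summit at 15291910 was at 11821, 10134 and 5469, inside it in replicate 3 alone. The replicates' own top lists each held 5 summits at Tm1.

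The sequences of 7 summits are printed because they are the stretches the peaks point to at Tm1, sls and Mlc2. They were read from the RefSeq copy of the dm6 assembly and run from 50 bp before to 50 bp after the summit, on the strand of the named gene, 5′ to 3′. The summit is base 51 of 101. Capitals mark a match to a word that was searched for on both strands, and windows that overlap an annotated UTR are not shown.
Tm1 chr3R:15280955-15281055, plus strand: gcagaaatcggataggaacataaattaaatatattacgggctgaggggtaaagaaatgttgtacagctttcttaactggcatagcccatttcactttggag
Tm1 chr3R:15281175-15281275, plus strand: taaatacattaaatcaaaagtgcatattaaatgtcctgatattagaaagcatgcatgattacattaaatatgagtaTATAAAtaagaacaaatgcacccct
Tm1 chr3R:15286151-15286251, plus strand: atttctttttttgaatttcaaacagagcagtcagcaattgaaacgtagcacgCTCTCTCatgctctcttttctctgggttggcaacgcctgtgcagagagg
Tm1 chr3R:15287901-15288001, plus strand: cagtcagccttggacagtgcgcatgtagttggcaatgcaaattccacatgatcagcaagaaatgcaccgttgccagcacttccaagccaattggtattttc
Tm1 chr3R:15291860-15291960, plus strand: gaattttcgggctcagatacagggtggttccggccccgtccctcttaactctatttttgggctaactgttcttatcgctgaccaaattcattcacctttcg
sls chr3L:2115852-2115952, minus strand: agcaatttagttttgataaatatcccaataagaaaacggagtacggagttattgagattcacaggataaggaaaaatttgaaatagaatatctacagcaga
Mlc2 chr3R:30170787-30170887, minus strand: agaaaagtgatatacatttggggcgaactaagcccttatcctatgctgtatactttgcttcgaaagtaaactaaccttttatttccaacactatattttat

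The words searched for matched few of these windows. Among the 7 sequences, the TATA box word TATAAA was in that of the Tm1 summit at 15281225 and the GAGA word GAGAGAG, on the opposite strand, in that of the summit at 15286201. Over all 17 summit windows TATAAA was in 4 (23.5%), and in 19.0% of the windows of all 8551 optimal summits. GAGAGAG was in 2 of 17 (11.8%) and in 1.72% of all windows. The Mef2 site, the A- and T-rich sequence bound by Mef2 protein, was in 1 of 17 (5.88%) and in 5.78% of all windows. That match was in the 3′ UTR window of Mlc2, which also held a TATA box word that did not overlap it. The DRE word TATCGATA, the M1BP word GGTCACAC and the homeodomain word TAATTA were in 0 of 17, and in 1.88%, 1.50% and 8.53% of all windows. A or T made up 44.6% to 75.2% of the 17 windows, with a median of 61.4%, and a median of 65.3% over all windows. A match is a description of letters, and with 17 windows a word at a few percent can be missed by the number of windows alone.

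Tm2, the next gene along, had no peak. Tm2 encodes the other tropomyosin and lies on the same strand 1413 bp beyond the end of Tm1, from 15310193 to 15315197 on 3R (FBgn0004117). None of its 5 starts had a summit within 500 bp in the optimal or the pooled relaxed list, and no entry of either list was in or within 2 kb of the gene. The nearest optimal summit was 4903 bp from the gene. In the replicates' relaxed lists it had 4, 1 and 0 entries, none better than rank 20857. The neighbouring tropomyosin genes thus had 6 and 0 optimal summits.

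Troponin T and troponin I, encoded by up and wupA, had no optimal summit. The gene up encodes troponin T, the subunit that ties the troponin complex to tropomyosin, and lies on X from 13593474 to 13602578 (FBgn0004169, minus strand). It had no entry in the pooled relaxed list, and its nearest optimal summit was 14269 bp away. Only replicate 1 had relaxed entries there, 2 of them, the better at rank 26381. The gene wupA encodes troponin I, the inhibitory subunit, and lies on X from 18105568 to 18116922 (FBgn0283471, minus strand). It had 2 pooled relaxed entries, at 18116693 (signal 49.5, 132 bp downstream of the start shared by 9 transcripts) and at 18117444 (signal 47.0, 522 bp upstream of the first start). The best rank of any entry there was 14964, 20516 and 22608 in replicates 1, 2 and 3. For these genes of 5 to 10 kb (up and Tm2) and 10 to 20 kb (wupA), 58.2% and 66.6% of all protein-coding genes of the same span class had an optimal summit in or within 2 kb. A promoter summit was present at 38.0% and 42.2% of them, and a pooled relaxed entry at 76.4% and 83.8%.

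Act57B encodes a muscle actin of the larva. The gene (FBgn0000044) is 2.41 kb long, with 1 start at 20944021 on arm 2R, plus strand. A single pooled relaxed entry lay 421 bp upstream of the start, with a signal of 34.2 at rank 26314 of 30000. Its best entries in replicates 1, 2 and 3 were at rank 17669, 19999 and 27351. The nearest optimal summit was 3969 bp upstream. Fly actin genes have near-identical coding sequences, and how reads that match several copies were treated is not given in the sources used here, so the lack of a peak inside this gene is uncertain.

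The giant filament genes sls and bt had 1 and 0 optimal summits over 75.9 and 52.1 kb. The gene sls encodes Sallimus, a titin-like protein of the Z-disc and I-band (FBgn0086906, 3L from 2039681 to 2115611, minus strand). All 13 annotated transcripts share 1 start, and the summit at 2115902 lay 291 bp upstream of it with a signal of 254. Its ranks in replicates 1, 2 and 3 were 2122, 5156 and 3610. No other gene overlaps that summit, and its sequence, shown above, held none of the 6 words. Inside the gene itself no optimal summit was found, and a single relaxed entry of signal 30.1 lay in a coding exon. Among protein-coding genes spanning over 50 kb, 72.0% had an optimal summit in or within 2 kb, 38.8% had one at a promoter, 89.6% had a pooled relaxed entry, and the median count of optimal summits was 3.

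The gene bt encodes projectin, a titin-like kinase of the thick filament, and lies on chromosome 4 from 724400 to 776474 (FBgn0005666, plus strand). It had 0 entries in or within 2 kb in the pooled list and in each of the 3 replicate lists. The nearest optimal summit was 26699 bp upstream. Chromosome 4 had few peaks at all, with 22 optimal summits or 16.3 per Mb, while the other arms had 61.0 to 68.1 per Mb. Of the 80 protein-coding genes on chromosome 4, 26.2% had an optimal summit in or within 2 kb. Whether the lack of peaks at bt follows from this low density was not tested.

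The myosin genes differed in the lists but neither had a promoter peak. Mhc encodes the muscle myosin heavy chain, the motor of the thick filament, and lies on 2L from 16766566 to 16788766 (FBgn0264695, plus strand). None of its 5 starts had an entry within 500 bp, and the nearest optimal summit was 18556 bp from the gene. No pooled relaxed entry was in or within 2 kb, although 90.7% of protein-coding genes of 20 to 50 kb had one. Replicates 2 and 3 each had 1 relaxed entry there, at rank 28786 and 29941, close to the end of each list of 30000.

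Mlc2 encodes the regulatory light chain of muscle myosin and lies on 3R from 30171438 to 30174551 (FBgn0002773, minus strand). Its 2 optimal summits were at its 3′ end, 3002 and 3714 bp downstream of its only start and 712 bp apart. The stronger, at 30170837 (signal 523), lay beyond the gene in an intron of Rsod and 370 bp from an Rsod start. Its ranks were 1525, 1086 and 1129, a narrow range. The weaker, at 30171549 (signal 226), lay in the 3′ UTR of Mlc2, 342 bp from an Rsod start, at rank 2987, 5704 and 6954. Both were nearer to Rsod than to the start of Mlc2. Upstream of Mlc2, relaxed entries stood 277 and 480 bp from the start with signals of 65.0 and 50.5, below the optimal threshold. Of all protein-coding genes under 5 kb, 39.9% had an optimal summit in or within 2 kb, 25.2% a promoter summit and 58.1% a pooled relaxed entry.

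**Figure D2:**
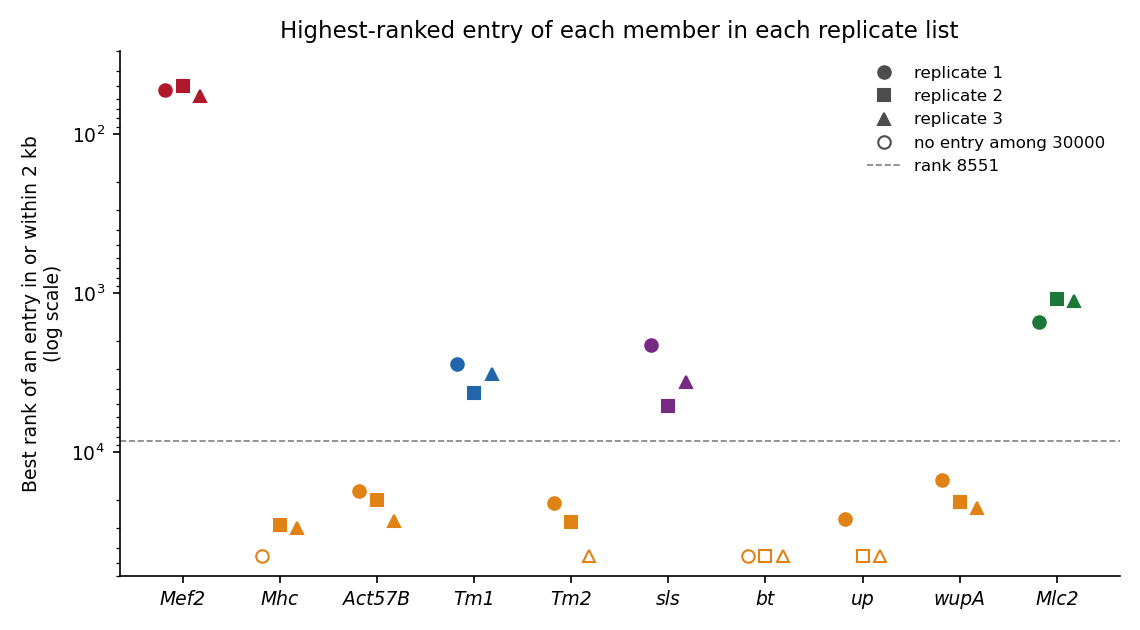
The highest-ranked entry in or within 2 kb of each gene in each replicate's list of 30000. The y axis is the rank on a log scale with rank 1 towards the top, circles, squares and triangles are replicates 1, 2 and 3, open symbols at the bottom mark a list without an entry, and the dashed line is rank 8551. Mef2, Tm1, sls and Mlc2 lie above the line in all 3 replicates, the other 6 genes lie below it or have no entry, and bt has none in any list.

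Mef2 had the strongest peak of the set beside it and further peaks spread over the whole gene. The gene (FBgn0011656) lies on arm 2R from 9913496 to 9958858, minus strand, with 3 starts for 11 transcripts. The summit with a signal of 2173 was at 9959946, 1088 bp upstream of the first start of Mef2, at rank 49 among the optimal peaks and at rank 53, 50 and 58 in replicates 1, 2 and 3. It lay in an intron of Pal1, a gene of an enzyme that amidates peptides, 132 bp from a Pal1 start. By position it thus belongs to a Pal1 promoter rather than to one of Mef2, and with a flank of 1 kb it would not be counted for Mef2.

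The peaks at the Mef2 starts were among the weakest of the gene. At the first start, at 9958858, the summit lay 62 bp downstream in the 5′ UTR, at 9958796 (signal 168). At the start at 9929615, which 8 of the 11 transcripts share, the summit lay 231 bp upstream, at 9929846 (signal 157). Replicate 1 had no entry within 100 bp of that summit, while replicates 2 and 3 had it at rank 6359 and 5422. The middle start, at 9944764, had a relaxed entry 11 bp away with a signal of 56.5 and no optimal summit within 500 bp.

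The 4 strongest summits inside Mef2 lay away from its starts. The summit at 9942995 (signal 612) was in a 5′ UTR exon 1769 bp downstream of the middle start, at rank 1118, 930 and 744. The summit at 9949676 (signal 501) was in an intron 4912 bp upstream of that start, at rank 1481, 1362 and 1261, and fell on the same base in all 3 replicates. In the first intron, summits at 9954803 (signal 319) and 9955459 (signal 163) stood 656 bp apart, 4055 and 3399 bp from the first start. The second of these was at rank 10392 in replicate 2, outside the 8551 highest signals. The summit at 9915263 (signal 618) was in the 3′ UTR, 14352 bp from the nearest Mef2 start and 4370 bp from that of Etf-QO, which encodes a dehydrogenase of the mitochondrial electron transfer chain. Its ranks were 1183, 786 and 1051.

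Read against genes of similar span, the Mef2 and Tm1 counts were in the upper range. Among 706 protein-coding genes spanning 20 to 50 kb, 71.1% had an optimal summit in or within 2 kb, 44.8% had one at a promoter, and the median count was 2. Of these genes 7.79% had as many as Mef2 (8) or more, and 15.0% had as many as Tm1 (6) or more. Mhc, of the same span class, had 0. In the replicates' own top lists Mef2 had 8, 7 and 9 summits, or 8 ± 1 (SD, n = 3), and Tm1 had 5 in each. Without summits nearer to the start of a neighbour, a count added after seeing the data, Mef2 had 6, Tm1 5, sls 1 and Mlc2 0. Summits per kb of gene and flanks were 0.162 for Mef2, 0.174 for Tm1, 0.281 for Mlc2 and 0.0125 for sls, and 0 for the other 6 genes. Over the 10 genes together the density was 0.0572 per kb, and over all protein-coding genes 0.0871. It fell with gene span, from 0.106 for all protein-coding genes under 5 kb to 0.0743 for those of 20 to 50 kb. For those over 50 kb, the class of sls and bt, it was 0.0463.

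**Figure D3:**
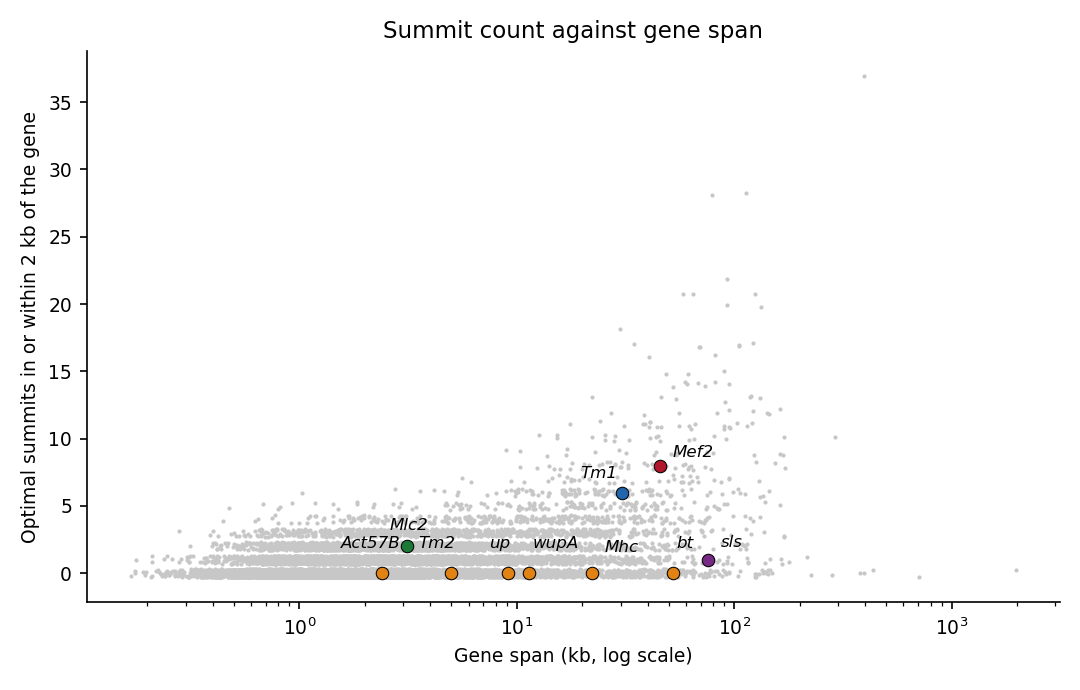
Optimal summits in or within 2 kb of a gene against gene span. The x axis is the span in kb on a log scale, the y axis the number of summits, grey dots are all 13945 protein-coding genes with a small vertical jitter, and labelled circles without jitter are the 10 genes. Mef2 (8) and Tm1 (6) stand above most genes of their span, while bt and Mhc stand at 0.

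Most of the 17 summits were found in all replicates, at a matching distance of 100 bp. Of the 17, 13 (76.5%, exact 95% interval 50.1% to 93.2%) were among the 8551 highest signals of each replicate, and of all optimal summits 64.8% were. The remaining summits were in 2 replicates' top lists (2 summits) or in 1 (2 summits). Replicates 1, 2 and 3 held 15, 14 and 16 of the 17. At 50 bp the share fell to 41.2%, and over all optimal summits to 49.4%. The optimal list was derived from these same replicates, so the shares are in part set by that choice. The interval covers counting error only and treats the 17 summits as independent, although most of them lie at Mef2 and Tm1. Depth is unknown because no list holds read counts.

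**Figure D4:**
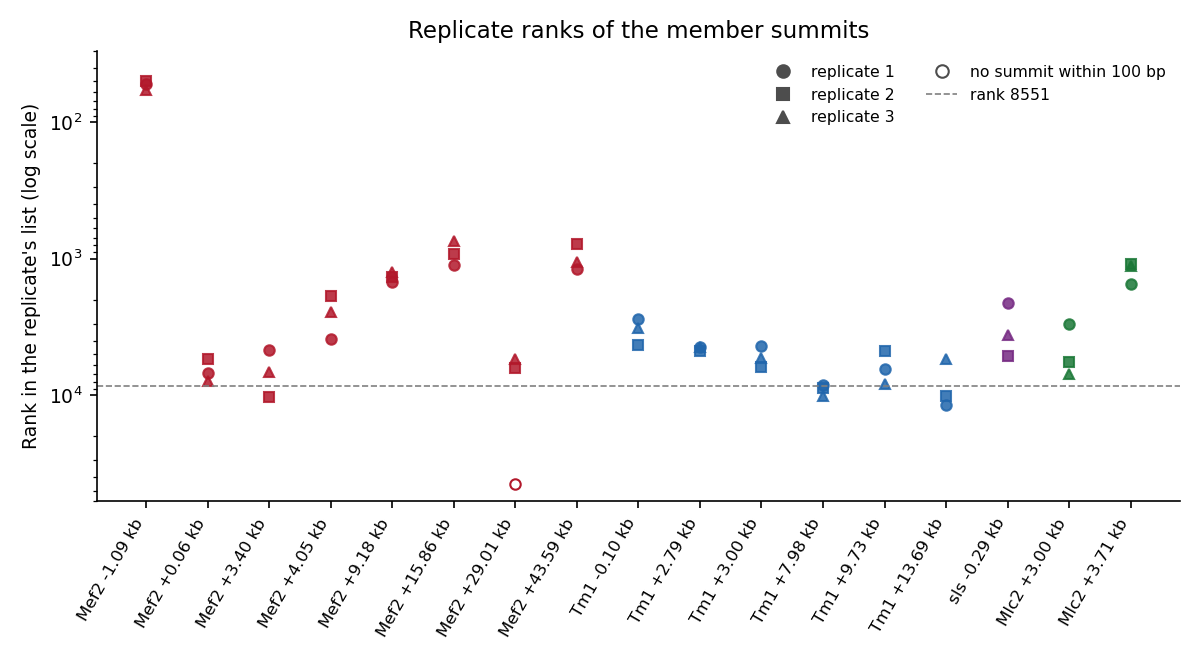
Ranks of the 17 summits in the 3 replicate lists. Each column is a summit, named by gene and by its distance in kb from the most upstream start, the y axis is the rank on a log scale with rank 1 towards the top, circles, squares and triangles are replicates 1, 2 and 3, and an open symbol marks a replicate without a summit within 100 bp. The summit 1088 bp upstream of Mef2 is at rank 50 to 58, and the Tm1 summits lie between ranks 2786 and 11821.

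Among genes of the sarcomere, peaks were likewise present at some and missing at others. Of 32 sarcomere genes listed, 13 (40.6%) had an optimal summit in or within 2 kb and 7 (21.9%) a promoter summit, against 46.0% and 29.0% of all protein-coding genes, with a median of 0 summits per gene. Leaving out the 9 contractile genes above, 10 of 23 had a summit and 5 of 23 a promoter summit. The pooled relaxed list held an entry for 21 of the 32 (65.6%), and for 64.2% of all protein-coding genes. Among the other actin and troponin genes listed, Act87E, a muscle actin gene, had 1 optimal summit (signal 351, 2067 bp from its start, at rank 2491, 2142 and 2516). TpnC73F, a troponin C gene, also had 1 (signal 252, 2012 bp from its nearest start and 1340 bp from that of rogdi, at rank 2572, 4453 and 16605). Both were named after their values were seen, outside the rule for named genes. The rest of these actin and troponin genes (Act79B, Act88F, TpnC25D, TpnC41C, TpnC47D and TpnC4) had 0 optimal summits. The strongest summit of the sarcomere list was at Msp300, which encodes a nesprin that links nuclei to the cytoskeleton in muscle. It had a signal of 1284, 329 bp from a start, at rank 216, 171 and 178. It was followed by tmod, encoding tropomodulin, which caps thin filaments (658, 421 bp from a start), and Zasp52, encoding a Z-disc protein, with 9 summits (strongest 582, 13611 bp from a start). Of the 32 sarcomere genes, 7 had a summit whose nearest start was their own, a count added after seeing the data. The share of all protein-coding genes under that rule is not given here, so the count is a description only.

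Calcium handling genes and other muscle transcription factor genes also had peaks at some members only. Of 12 calcium handling genes, 7 (58.3%) had an optimal summit in or within 2 kb and 5 (41.7%) a promoter summit, against 46.0% and 29.0% of all protein-coding genes. Most of the 12 span over 10 kb, and longer genes had higher shares. For all protein-coding genes of 10 to 20 kb these were 66.6% and 42.2%, and for those of 20 to 50 kb 71.1% and 44.8%. The calcium handling shares are thus not an excess for genes of that length. The strongest were at Orai, a store-operated calcium channel gene (359, 274 bp from a start), Cam, encoding calmodulin (222, 49 bp), and the calcium channel gene Ca-alpha1T (221, 943 bp). At Cam the nearest start was that of lncRNA:CR43900, 38 bp away. Of 18 muscle transcription factor genes other than Mef2, 9 (50%) had an optimal summit in or within 2 kb and 5 (27.8%) a promoter summit, against the same 46.0% and 29.0%. The strongest were at tin, the homeobox gene of heart and visceral muscle (972, 162 bp from its start, at rank 384, 365 and 447), and nau, the fly MyoD homologue (557, 4252 bp from its start). At nau the nearest start was that of CG10300, 2578 bp away. The lists were chosen by hand with earlier results known, and shares near those of all protein-coding genes are not a result about the lists.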

How the data were processed

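Per the file listing, the authors called a relaxed peak list of 30000 entries on each of 3 replicate alignments and on the pooled alignments, each together with a further file that the listing does not describe, and thresholded the optimal dm6 list on the irreproducible discovery rate. Aligner and peak caller: not given in the sources used here. The authors state no scaling of peak signal across their deposited lists, so it served only to describe and rank peaks within one. The deposited −log10 q-value was not used. Lists on dm3 were not used.

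Summits were placed at the peak start plus the summit offset and written 1-based on dm6. Genes came from Ensembl release 115 and sequence from RefSeq, and RefSeq transcript starts equalled those of Ensembl for all 10 genes. Nearest starts left out transposable elements. A summit in several features took the first of 5′ UTR, coding exon, 3′ UTR and intron. The genes and lists were chosen with earlier results of these data known. The rule for named genes takes the 10 genes, the genes at or nearest to their summits, and the 3 list members with the highest signal in each of the 3 lists. Unc-89, Unc-45 and CF2 were matched as Obsc, unc-45 and Cf2. No test was run, because there is 1 group. Assignment of summits was tested on simulated data. Python 3.11.15, numpy 2.4.6, scipy 1.17.1 and matplotlib 3.10.9 were used.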

Additional observations from a re-analysis of the deposited data

How the results depend on the processing

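Other flanks (0, 1 and 5 kb), promoter distances (250 and 1000 bp), RefSeq starts, peak intervals in place of summits, the 4275 peaks with the higher signal, other matching rules and leaving out each replicate were tried, and a count of summits nearest to a start of the gene itself was added after seeing the data. The 17 summits became 9 with the higher signal, with 5 at Mef2, 2 at Mlc2, 1 at Tm1 and 1 at sls. The Tm1 summit that remained was the one 13 bp from the start of MRG15. For leaving out a replicate, only optimal summits matched within 100 bp in the top lists of both other replicates were kept. That added requirement left 13 to 14 summits, and the optimal list itself was not called again. The 4 genes with a summit became 3 with no flank and 6 with 5 kb, where Act57B and Tm2 gained 1 each. The 3 genes with a promoter summit became 2 at 250 bp, where sls was lost, and 2 with the higher signal, where Mef2 was lost. For the sarcomere list, 13 genes became 8 with no flank and 7 with own starts only, and 7 promoter genes became 4 at 250 bp. The 76.5% of summits in all replicates became 41.2% at 50 bp, 82.4% at 200 bp, 82.4% by interval overlap, 94.1% in the full relaxed lists, and 76.5% to 82.4% without each replicate. The cause was not tested. Ranking by p-value was not run, because that column holds a single constant in every list. No paired analysis was possible because there is 1 group.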
